A study of Mus musculus with 6 samples.

Results

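In order to examine whether loss of the integrin α5 chain alters the expression of proliferation genes in macrophages of the healing infarct, 51 genes of the cell cycle were examined in hearts of both genotypes. The genes were chosen by name from the 54532 genes of the count table: 18 S-phase genes, 28 mitotic genes and 5 genes of the G1 phase, namely the D cyclins and their kinases. Earlier results of these data were known when the genes were chosen. The data were 6 RNA-seq libraries, 3 from each genotype, made from the Ly6G-, CD11b+ cells of single infarcted hearts, harvested on day 7 after permanent coronary ligation in 12-week-old C57BL/6 mice. Both groups carry 2 floxed alleles of Itga5, which encodes integrin α5. Myα5KO mice additionally carry Cre recombinase under the lysozyme M promoter, which is active in neutrophils and other myeloid cells as well as macrophages, whereas the ITGA5 fl/fl animals were littermates without Cre.

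A cell that leaves rest accumulates D cyclins, which bind the kinases CDK4 and CDK6 and inactivate the retinoblastoma family of repressors, releasing E2F transcription factors. E2F factors turn on the S-phase genes, which load the replicative helicase, supply nucleotides and copy the DNA. The mitotic genes follow later, through a complex of MuvB proteins, MYBL2 and FOXM1, and drive spindle assembly, chromosome segregation and division. After infarction, most cardiac macrophages derive from recruited monocytes, and local division contributes to their number.

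Promoter sequences were examined first, since both waves are known by their promoter elements. RefSeq promoter windows on build GRCm38.p6, from 250 bases before to 50 bases after the annotated start, were available for 40 of the 51 genes. The windows were searched on both strands for the E2F words TTTCCCGC, TTTGGCGC, TTTGCCGC and TTTCGCGC, for the words TTTGAA and TTCGAA of the cell cycle genes homology region (CHR), and for CCAAT, the core of the NF-Y element. An E2F word was found in 8 of 16 S-phase genes (50%), in 1 of 21 mitotic genes (4.8%) and in 2.6% of all 27025 genes in the promoter table. A CHR word was found in 16 of 21 mitotic genes (76.2%), in 3 of 16 S-phase genes (18.8%) and in 21.7% of all genes. All 16 mitotic genes with a CHR word also held CCAAT, a pair present in 8.6% of all genes. A second CCAAT was present in 61.9% of the mitotic genes, 37.5% of the S-phase genes and 13.3% of all genes. None of the 3 G1 genes with a window held an E2F or a CHR word. These matches are descriptions of letters and not of bound sites.

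**Figure D1:**
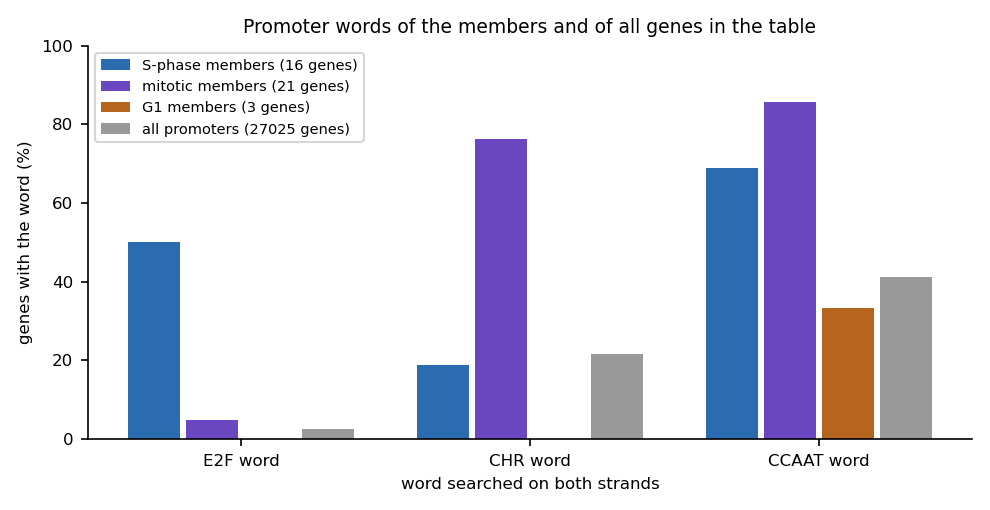
Percent of genes (y axis) whose promoter window holds at least 1 E2F, CHR or CCAAT word (x axis), for the S-phase (16 genes), mitotic (21 genes) and G1 members (3 genes) and for all 27025 genes of the RefSeq table. The E2F bar is highest for the S-phase genes (50%) and the CHR bar for the mitotic genes (76.2%).

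The following stretches give the 150 bases before the start in the direction of transcription, with the searched words in capitals. They were chosen to show the words of each wave and, for Ccnd3, a called gene whose promoters hold neither an E2F nor a CHR word. Positions count from -1, the base before the start, and mark the leftmost base of a word. Mcm6 (a helicase subunit, chr1:128359706-128359855, minus strand) holds 3 E2F matches, at -110, -106 and -47, the first pair overlapping, and CCAAT at -57 and -14. Mcm5 (chr8:75109359-75109508, plus strand) holds an E2F match at -149 that overlaps another at -153 reaching beyond the stretch, and CCAAT at -77 and -22. Cdc20 (chr4:118437344-118437493, minus strand) holds CHR at -18 between CCAAT words at -53 and -8. Mki67 (chr7:135716380-135716529, minus strand) holds CHR at -116 and -98 and CCAAT at -141, with further CCAAT words upstream of the stretch. Cdk1 (chr10:69352913-69353062, minus strand) is the mitotic gene with all 3 kinds of word, with E2F at -131, CHR at -71 and -15 and CCAAT at -80 and -48. Ccnd3 has 2 annotated starts (chr17:47504901-47505050, plus strand and chr17:47593317-47593466, plus strand), and only the second stretch holds a searched word, CCAAT at -108.
Mcm6: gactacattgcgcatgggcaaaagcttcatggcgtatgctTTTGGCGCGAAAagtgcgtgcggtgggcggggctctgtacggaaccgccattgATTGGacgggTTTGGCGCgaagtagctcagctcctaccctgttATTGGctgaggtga
Mcm5: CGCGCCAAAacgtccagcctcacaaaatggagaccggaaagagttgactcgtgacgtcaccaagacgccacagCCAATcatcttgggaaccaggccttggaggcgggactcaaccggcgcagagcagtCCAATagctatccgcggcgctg
Cdc20: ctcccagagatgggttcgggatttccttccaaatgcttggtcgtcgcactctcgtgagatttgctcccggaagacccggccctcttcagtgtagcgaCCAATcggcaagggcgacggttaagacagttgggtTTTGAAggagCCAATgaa
Mki67: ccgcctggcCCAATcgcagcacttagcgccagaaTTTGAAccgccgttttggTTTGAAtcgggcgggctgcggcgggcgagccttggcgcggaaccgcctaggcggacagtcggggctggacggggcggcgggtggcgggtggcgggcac
Cdk1: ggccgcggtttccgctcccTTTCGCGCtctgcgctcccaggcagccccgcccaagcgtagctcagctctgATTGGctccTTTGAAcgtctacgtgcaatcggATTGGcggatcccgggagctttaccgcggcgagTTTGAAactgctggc
Ccnd3, first start: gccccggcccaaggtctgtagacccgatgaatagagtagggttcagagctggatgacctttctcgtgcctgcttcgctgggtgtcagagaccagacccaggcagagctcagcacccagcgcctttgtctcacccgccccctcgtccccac
Ccnd3, second start: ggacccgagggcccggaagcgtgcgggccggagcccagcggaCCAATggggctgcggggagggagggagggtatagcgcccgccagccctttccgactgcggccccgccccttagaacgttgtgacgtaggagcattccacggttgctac

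The libraries held between 15424451 and 18419287 counts, and every Myα5KO total exceeded every ITGA5 fl/fl total. The targeted gene, Itga5, fell in the Myα5KO libraries, from 607 ± 43.2 to 48.7 ± 1.48 CPM (counts scaled to a common library size, here with TMM factors, mean ± SD, n = 3 per group; log2 fold change -3.64, edgeR adjusted p = 4.42e-12). All 8 macrophage markers were detected, and Cd68, Csf1r, Adgre1 and Mertk did not pass the test, at mean levels of 896 and 860, 2188 and 2153, 1313 and 1272, and 218 and 217 CPM in ITGA5 fl/fl hearts and Myα5KO libraries. Lyz2, the gene that carries the Cre insertion, was lower (log2 fold change -0.92, edgeR adjusted p = 4.27e-05), as was Cd14 (-0.45, adjusted p = 0.00413), whereas Fcgr1 was higher (0.27, adjusted p = 0.0215). Of 8 neutrophil markers tested, 7 were called higher, and the summed level of the list ranged from 35.9 to 59.5 CPM in the control and from 80.4 to 200 CPM in the knockout group. The defining neutrophil surface marker Ly6g was at a mean of 0.0196 and 0.0532 CPM.

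All 51 cell cycle genes were detected in all 6 libraries, with between 16 and 3284 counts, and all passed the expression filter. Called genes are those with an adjusted p of 0.05 or less in the quasi-likelihood test of edgeR over all 14522 genes tested. Of the 51 genes, 4 were called higher in Myα5KO (7.84%), against 3.56% of all genes tested, and 0 were called lower, against 5.19%, so that 8.75% of all tested genes were called in either direction. The called genes were the D cyclins Ccnd1, Ccnd2 and Ccnd3 and the spindle factor Tpx2. At an unadjusted p under 0.05 in edgeR, 8 of the 51 genes were higher and 3 lower, beside 1692 and 1661 of all 14522 genes tested. Both DESeq2 and limma-voom called 3 genes higher and 0 lower. The log2 fold change was positive in 41 of 51 genes (80.4%; 52.8% of all genes tested), with a median of 0.09 (0.01 over all genes tested). The CPM ranges of the groups did not overlap in 10 genes with Myα5KO higher (19.6%, against 14.9% of all genes tested) and in 3 genes with Myα5KO lower (all genes tested, 13.8%). Among all calls, 40.7% were higher in Myα5KO, and 70.1% when scaling by library size alone, a scaling that also called 7 cell cycle genes. Because the libraries came from bulk cell suspensions, a different number of dividing cells and a different amount of RNA per dividing cell cannot be told apart.

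**Figure D2:**
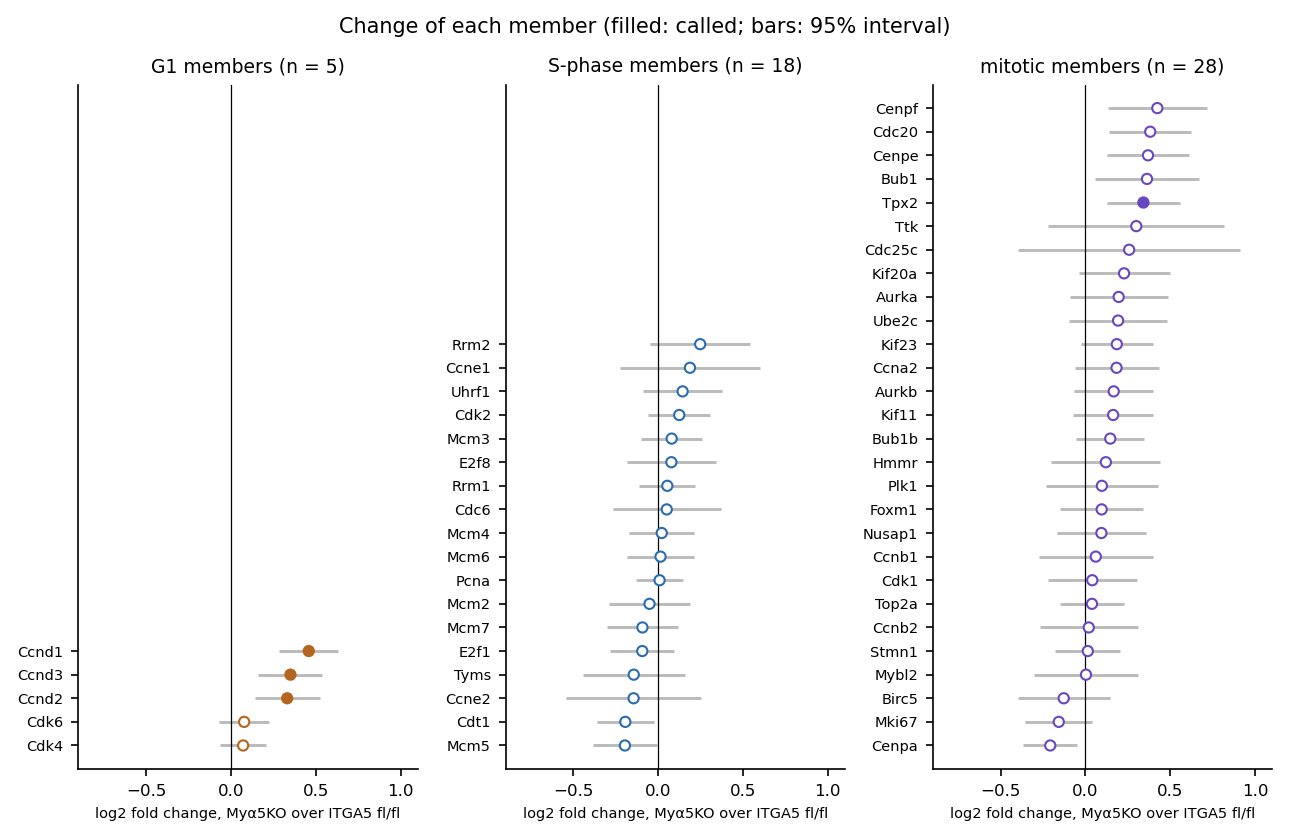
Log2 fold change of Myα5KO over ITGA5 fl/fl (x axis) for each gene (y axis), with 95% intervals, for the 5 G1, 18 S-phase and 28 mitotic genes. Filled points are the 4 called genes: Ccnd1, Ccnd2, Ccnd3 and Tpx2. The S-phase genes lie on both sides of 0 (11 of 18 positive), and 25 of 28 mitotic genes lie to the right.

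Among the G1 genes, the 3 D cyclins rose in Myα5KO cells and their 2 kinases did not pass the test. Ccnd1, Ccnd2 and Ccnd3 encode the regulatory subunits that activate CDK4 and CDK6. Ccnd1 (chr7:144929931-144939925, minus strand) was at 45.0, 53.6 and 49.7 CPM in the ITGA5 fl/fl libraries and at 68.2, 72.9 and 62.7 CPM in the Myα5KO libraries. All 3 Myα5KO values lay above the highest control value. This was a 37.4% increase (log2 fold change 0.46, SE 0.08, edgeR adjusted p = 0.00387, n = 3 per group). Ccnd2 (chr6:127125162-127152193, minus strand) was at 29.4, 37.5 and 33.4 CPM in ITGA5 fl/fl hearts and at 44.3, 40.7 and 41.4 CPM in Myα5KO libraries. The groups did not overlap, and the increase was 25.8% (log2 fold change 0.33, SE 0.09, edgeR adjusted p = 0.0350). Ccnd3 (chr17:47505051-47599691, plus strand) was at 33.6, 38.1 and 39.8 CPM in ITGA5 fl/fl hearts and at 42.8, 48.3 and 51.3 CPM in Myα5KO libraries. The groups did not overlap here either, and the increase was 27.5% (log2 fold change 0.35, SE 0.09, edgeR adjusted p = 0.0255). 

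The kinases showed no such separation. Cdk4 was at 62.5, 65.0 and 65.2 CPM in ITGA5 fl/fl hearts and at 65.2, 67.6 and 69.8 CPM in Myα5KO libraries, and the groups met at 65.2 CPM. The fold was 1.05 (95% interval 0.956 to 1.16, edgeR adjusted p = 0.545). This interval overlapped the intervals of Ccnd2 and Ccnd3 but not that of Ccnd1. Whether the change of Cdk4 differed from those of the D cyclins was not tested. Cdk6 was at 120, 108 and 113 CPM in ITGA5 fl/fl hearts and at 120, 127 and 113 CPM in Myα5KO libraries, so that the groups overlapped. Its fold was 1.06 (95% interval 0.953 to 1.17, edgeR adjusted p = 0.541).

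The summed level of the 3 D cyclins was 108, 129 and 123 CPM in ITGA5 fl/fl hearts and 155, 162 and 155 CPM in Myα5KO libraries, a ratio of 1.31. Mean levels of Ccnd1, Ccnd2 and Ccnd3 were 49.4, 33.4 and 37.2 CPM in the control group. In the knockout group they were 68.0, 42.1 and 47.4 CPM. FPKM divide by deposited gene lengths of 4709, 9409 and 8775 bases, so shares by FPKM depend on those lengths. By FPKM, Ccnd1 had the largest share in both groups, with 57.4 ± 0.70% in the control and 59.3 ± 2.44% in the knockout group (SD, n = 3). Ccnd2 made up 19.4 ± 0.71% and 18.4 ± 1.24%, and Ccnd3 23.2 ± 1.17% and 22.3 ± 2.32%. Thus the share of each D cyclin differed by less than 1 SD of the Myα5KO libraries, while the sum was higher. Measured by the smaller SD of the control libraries, the shares of Ccnd1 and Ccnd2 differed by more than 1 SD.

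The Ccnd1 call was kept in all 17 alternative analyses, the Ccnd3 call in 10 and the Ccnd2 call in 8. Both Ccnd2 and Ccnd3 lost their calls with limma on log2(FPKM + 1) (adjusted p = 0.113 and 0.0939) and on log2(FPKM + 0.1) (0.112 and 0.0929). Ccnd2 lost its call when leaving out ITGA5 fl/fl replicate 1 (adjusted p = 0.114, edgeR) or 3 (0.105), or Myα5KO replicate 1 (0.0984), 2 (0.0714) or 3 (0.0570), and Ccnd3 when leaving out ITGA5 fl/fl replicate 1 (0.0863), ITGA5 fl/fl replicate 2 (0.0676), Myα5KO replicate 2 (0.0817) or 3 (0.0767). Exons of each G1 gene overlap a gene on the other strand, and whether the counting used strand is not stated. The partner of Ccnd1 (LTO1, listed as Oraov1) was at 6.89 and 7.64 CPM in ITGA5 fl/fl hearts and Myα5KO libraries (edgeR adjusted p = 0.689). The partner of Ccnd3 (Bysl) was at 9.38 and 9.90 CPM (adjusted p = 0.766). The partner of Cdk4 (Tspan31, overlap of up to 641 bases) was at 53.8 and 54.4 CPM (adjusted p = 0.926), beside 64.2 and 67.5 CPM for Cdk4 itself. How far reads of Tspan31 entered the Cdk4 value was not tested.

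**Figure D3:**
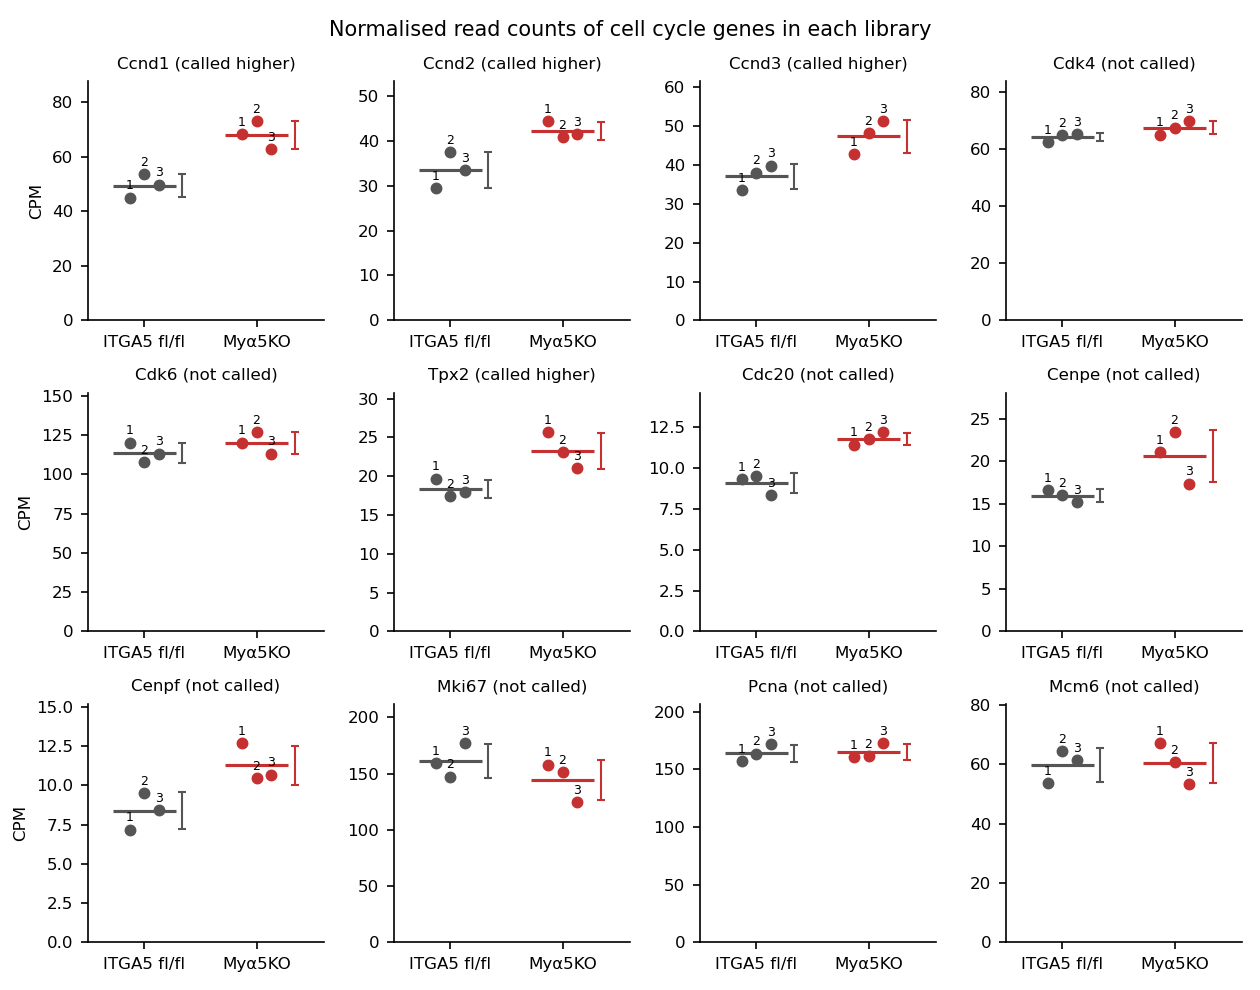
CPM (y axis, from 0) of 12 cell cycle genes in each library of ITGA5 fl/fl (grey) and Myα5KO (red) hearts (x axis). Points are libraries labelled with their replicate number, horizontal lines group means, and bars beside them ± 1 SD (n = 3). The groups are apart for the 3 D cyclins, Tpx2, Cdc20, Cenpe and Cenpf, and overlap for Cdk4, Cdk6, Mki67, Pcna and Mcm6.

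Next, the S-phase genes were compared. None of the 18 was called by edgeR, DESeq2 or limma-voom. At an unadjusted p under 0.05 edgeR gave 0 genes higher and 2 lower, beside 1692 and 1661 of all 14522 genes tested. The median log2 fold change was 0.02, with a range from -0.20 to 0.25, and 11 of 18 were positive. The summed level of the list was 643 ± 31.9 CPM in control and 641 ± 11.5 CPM in knockout libraries, a ratio of 0.997.

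Pcna, the sliding clamp of the replicative polymerases, had the highest level of all 51 genes per gene length, with a mean of 68.2 FPKM. It was at 157, 164 and 172 CPM in ITGA5 fl/fl hearts and at 161, 162 and 173 CPM in Myα5KO libraries. The groups overlapped, and the fold was 1.01 (95% interval 0.913 to 1.11, edgeR adjusted p = 0.960). Cdt1, which loads the helicase onto origins, followed among the S-phase genes with 16.7 FPKM. It was at 60.8, 55.8 and 52.5 CPM in ITGA5 fl/fl hearts and at 45.1, 51.3 and 51.3 CPM in Myα5KO libraries, without overlap, but did not pass the test (log2 fold change -0.19, SE 0.08, edgeR adjusted p = 0.153). Its loading partner Cdc6 had a log2 fold change of 0.05 (adjusted p = 0.875).

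The helicase itself is built from the 6 MCM subunits Mcm2 to Mcm7, whose log2 fold changes lay on both sides of 0. Mcm3, next by level (13.1 FPKM), was at 42.8, 50.1 and 51.2 CPM in ITGA5 fl/fl hearts and at 53.0, 52.5 and 46.8 CPM in Myα5KO libraries, and its log2 fold change was 0.08 (edgeR adjusted p = 0.619). Mcm5 was at 41.1, 40.5 and 42.5 CPM in ITGA5 fl/fl hearts and at 36.7, 40.0 and 31.6 CPM in Myα5KO libraries. The groups did not overlap, yet the log2 fold change of -0.20 (SE 0.09) did not pass the test (edgeR adjusted p = 0.196). For Mcm2, Mcm4, Mcm6 and Mcm7 the log2 fold changes were -0.05, 0.02, 0.01 and -0.09 (adjusted p = 0.826, 0.918, 0.949 and 0.620). The promoters of Mcm5 and Mcm6 shown above both hold E2F words, and neither gene was called. Whether their changes differed from each other was not tested.

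Among the enzymes of nucleotide supply, the ribonucleotide reductase subunits Rrm1 and Rrm2 had log2 fold changes of 0.05 and 0.25 (adjusted p = 0.729 and 0.306), and thymidylate synthase (Tyms) of -0.14 (0.586). Rrm2 was spread widely in the control group, from 12.9 to 20.5 CPM. Of the cyclin E genes, which drive entry into S phase with CDK2, Ccne1 was at 0.19 (adjusted p = 0.607) and Cdk2 at 0.12 (0.417) on the log2 fold scale. Ccne2 was at 3.22, 3.29 and 3.19 CPM in ITGA5 fl/fl hearts and at 3.14, 2.89 and 2.73 CPM in Myα5KO libraries, without overlap, at a level where counting error is wide (log2 fold change -0.15, SE 0.19, edgeR adjusted p = 0.694). The activator E2f1 and the atypical repressor E2f8 had log2 fold changes of -0.09 and 0.08 (adjusted p = 0.568 and 0.757), and Uhrf1, which guides maintenance DNA methylation, of 0.14 (0.463).

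Mitotic genes showed mostly small positive values, of which 1 of 28 passed the test (3.57% called higher, beside 3.56% of all genes tested). The median log2 fold change was 0.15 and 25 of 28 were positive, beside 0.02 and 11 of 18 in the S-phase genes, a difference between lists that was not tested. At an unadjusted p under 0.05 in edgeR, 5 of the 28 genes were higher and 1 lower, beside 1692 and 1661 of all 14522 genes tested. The groups did not overlap in 7 genes, all higher in Myα5KO (25%, beside 14.9% of all genes tested). The summed level was 689 ± 35.5 CPM in control and 698 ± 48.3 CPM in knockout libraries, a ratio of 1.01. The 2 mitotic genes with the highest CPM, Mki67 and Cenpa, had negative log2 fold changes. Per gene length the mitotic genes lay lower, with a median of 3.43 FPKM against 6.54 FPKM for the S-phase genes and 3.73 FPKM for all genes tested.

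Tpx2 (chr2:152847964-152895321, plus strand), which targets and activates Aurora A kinase on the spindle, was the mitotic gene called. It was at 19.7, 17.4 and 17.98 CPM in ITGA5 fl/fl hearts and at 25.7, 23.1 and 21.0 CPM in Myα5KO libraries, without overlap. The increase was 26.7% (log2 fold change 0.34, SE 0.10, edgeR adjusted p = 0.0491). The call stood close to the threshold and was kept in 4 of 17 alternatives; it was lost with DESeq2 (adjusted p = 0.0838) and limma-voom (0.0525), and without ITGA5 fl/fl replicate 1 (0.0534, edgeR), 2 (0.169) or 3 (0.152) or Myα5KO replicate 1 (0.164) or 2 (0.121).

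The regulators of anaphase and of the spindle checkpoint were not called. Cdc20, which activates the anaphase-promoting complex and whose promoter is shown above, was at 9.32, 9.52 and 8.37 CPM in ITGA5 fl/fl hearts and at 11.4, 11.8 and 12.2 CPM in Myα5KO libraries. The groups did not overlap (log2 fold change 0.38, SE 0.11, edgeR adjusted p = 0.0512) and the gene was called in 3 of 17 alternatives, with adjusted p values between 0.0195 and 0.189 over all of them. Bub1b, a checkpoint protein that restrains CDC20, was at 21.7, 21.7 and 18.3 CPM in ITGA5 fl/fl hearts and at 22.5, 22.6 and 23.1 CPM in Myα5KO libraries, a separation smaller than the control spread (log2 fold change 0.15, edgeR adjusted p = 0.381). The checkpoint kinases Bub1 and Ttk had log2 fold changes of 0.36 and 0.30 (adjusted p = 0.143 and 0.50), and Ube2c, which ubiquitinates targets of the anaphase-promoting complex, of 0.19 (0.419).

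Of the kinetochore genes, Cenpe and Cenpf lay higher in every Myα5KO library and Cenpa did not. Cenpe, a motor that aligns chromosomes, was at 16.6, 16.0 and 15.2 CPM in ITGA5 fl/fl hearts and at 21.0, 23.4 and 17.4 CPM in Myα5KO libraries (log2 fold change 0.37, SE 0.11, edgeR adjusted p = 0.0609). Cenpf was at 7.17, 9.52 and 8.42 CPM in ITGA5 fl/fl hearts and at 12.7, 10.4 and 10.7 CPM in Myα5KO libraries (log2 fold change 0.42, SE 0.14, edgeR adjusted p = 0.0700). Cenpa, the histone H3 variant that marks centromeres, ran the other way, at 101, 106 and 94.6 CPM in ITGA5 fl/fl hearts and at 80.9, 94.8 and 85.8 CPM in Myα5KO libraries. The highest Myα5KO value and the lowest control value overlapped, and the log2 fold change of -0.21 (SE 0.07) did not pass the test (edgeR adjusted p = 0.106).

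The Aurora kinases and the motors of the spindle and midbody had positive log2 fold changes and no calls. Aurkb, the kinase of the chromosomal passenger complex, was at 10.1, 9.57 and 10.1 CPM in ITGA5 fl/fl hearts and at 11.0, 11.4 and 11.0 CPM in Myα5KO libraries, without overlap (log2 fold change 0.17, SE 0.11, edgeR adjusted p = 0.387). Its partner Birc5 (survivin) was at -0.13 (adjusted p = 0.591), and Aurka at 0.20 (0.414). Kif20a, a kinesin needed for cytokinesis, was at 8.11, 7.28 and 8.82 CPM in ITGA5 fl/fl hearts and at 9.64, 9.85 and 8.89 CPM in Myα5KO libraries, barely apart (log2 fold change 0.23, SE 0.12, edgeR adjusted p = 0.300). The kinesins Kif11, which separates the spindle poles, and Kif23, of the central spindle, were at 0.16 (adjusted p = 0.402) and 0.18 (0.283). The microtubule-associated Nusap1 and Hmmr had log2 fold changes of 0.09 and 0.12 (adjusted p = 0.701 and 0.684).

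Stmn1, which destabilises microtubules, had the highest mitotic level (32.9 FPKM). It was at 55.6, 62.3 and 72.1 CPM in ITGA5 fl/fl hearts and at 60.6, 68.2 and 63.3 CPM in Myα5KO libraries, with all Myα5KO values inside the control range (fold 1.01, 95% interval 0.884 to 1.15, edgeR adjusted p = 0.948). Mki67, the gene of the Ki-67 antigen, is the usual marker of cycling cells and followed Stmn1 and Cenpa with 15.1 FPKM. It was at 159, 147 and 177 CPM in ITGA5 fl/fl hearts and at 158, 151 and 124 CPM in Myα5KO libraries. The groups overlapped, and the fold was 0.897 (95% interval 0.782 to 1.03, edgeR adjusted p = 0.332). Top2a, which untangles chromosomes, had a log2 fold change of 0.04 (adjusted p = 0.836).

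None of the genes of mitotic entry was called. Cdk1, Ccnb1 and Ccnb2, which form the mitotic kinase, had log2 fold changes of 0.04, 0.06 and 0.02 (adjusted p = 0.879, 0.858 and 0.951). For Ccna2 (cyclin A) the value was 0.18 (0.371), for Plk1 (Polo-like kinase) 0.10 (0.760) and for the activating phosphatase Cdc25c 0.26 (0.666). The transcription factors Foxm1 and Mybl2, which drive this wave, were at 0.10 and 0.00 (adjusted p = 0.669 and 0.993). The 95% interval of Cdc25c, which was counted as few as 16 times in a library, ran from -0.40 to 0.91 on that scale.

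**Figure D4:**
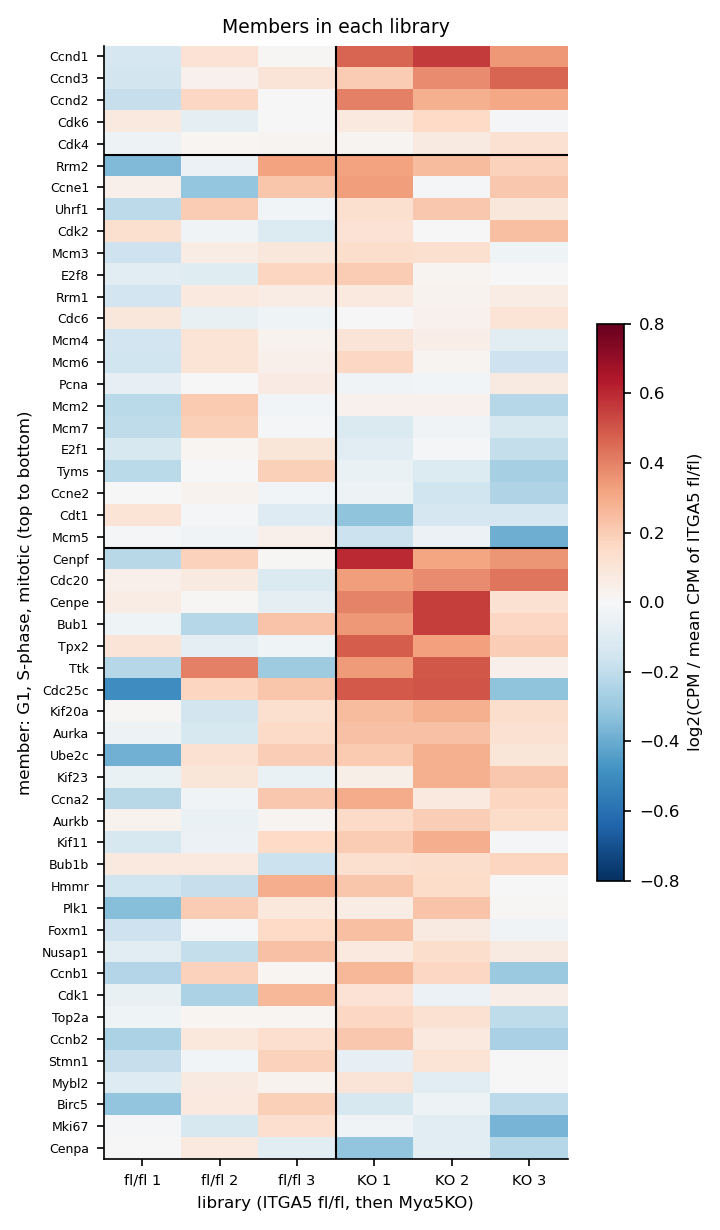
Log2 of CPM over the mean CPM of the ITGA5 fl/fl libraries (colour scale, red higher, blue lower) for each gene (rows, in the order G1, S-phase, mitotic, split by lines) and library (columns, 3 ITGA5 fl/fl then 3 Myα5KO). The D cyclin rows are red in all 3 Myα5KO libraries, while most mitotic rows are palest in Myα5KO replicate 3, the lowest of its group in 19 of 28 genes.

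Single libraries moved many of these genes together. Myα5KO replicate 3 was the lowest of its group in 19 of 28 mitotic and 12 of 18 S-phase genes, and ITGA5 fl/fl replicate 1 in 13 and 11. ITGA5 fl/fl replicate 3 was the highest of its group in 16 mitotic genes. Without ITGA5 fl/fl replicate 1, 20 of 28 mitotic genes were positive with a median log2 fold change of 0.06, and 7 of 18 S-phase genes with a median of -0.04. Without Myα5KO replicate 1 the mitotic median was 0.12, and without Myα5KO replicate 3 it was 0.18. The number of genes called was 1 without ITGA5 fl/fl replicate 1 or Myα5KO replicate 2, 2 without ITGA5 fl/fl replicate 2 or 3 or Myα5KO replicate 1, and 3 without Myα5KO replicate 3.

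Markers of other cells also differed between the groups beside these values. The summed neutrophil markers, which include the granule genes Mpo and Elane of early precursors (log2 fold changes 1.41 and 0.97, edgeR adjusted p = 0.0228 and 0.0237), were at 55.6, 35.9 and 59.5 CPM in ITGA5 fl/fl hearts and at 152, 80.4 and 200 CPM in Myα5KO libraries. The library with the highest sum, Myα5KO replicate 3, was the lowest of its own group in 19 of 28 mitotic genes, a rank that leaves out the control libraries. Whether that sum and that rank are related was not tested. B cell markers summed to between 226 and 261 CPM and between 237 and 305 CPM, with 2 of 6 genes called higher. Blnk (log2 fold change -0.18, edgeR adjusted p = 0.107) made up most of that sum, at 151 and 133 CPM, and the other 5 B cell genes had log2 fold changes from 0.48 to 0.69, each with an unadjusted p under 0.05. T and NK cell markers summed to between 10.3 and 11.6 CPM and between 13.8 and 18.5 CPM, with 1 of 5 tested genes called higher. Fibroblast markers summed to between 1620 and 1899 CPM and between 1211 and 1579 CPM, with 1 of 8 genes called lower, and cardiomyocyte markers to between 23.2 and 25.0 CPM and between 14.5 and 18.4 CPM, with 3 of 8 called lower. Endothelial markers ranged from 269 to 296 CPM and from 293 to 330 CPM (1 of 6 called higher), dendritic cell markers from 93.1 to 121 CPM and from 113 to 125 CPM (1 of 7 called higher), and erythroid markers from 4.83 to 8.82 CPM and from 4.10 to 5.84 CPM (0 of 2 tested called by edgeR, 1 at an unadjusted p under 0.05), with 1 of 7 erythroid genes at 0 in all libraries. The part of these cells in the values of the D cyclins, of Tpx2 and of the other cell cycle genes was not tested.

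**Figure D5:**
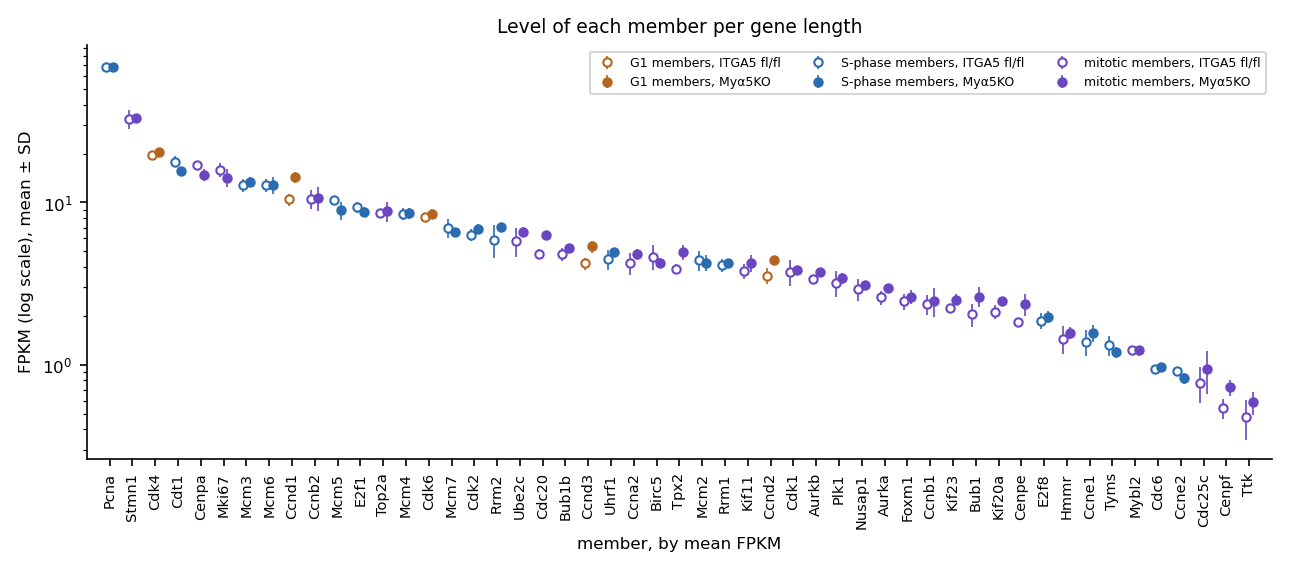
Level of each gene in FPKM (y axis, log scale; mean ± SD, n = 3) in ITGA5 fl/fl (open) and Myα5KO (filled) libraries, ordered by mean FPKM (x axis) and coloured by role. Pcna is highest at 68.2 FPKM and Ttk lowest at 0.531 FPKM. The mitotic genes have a median of 3.43 FPKM and the S-phase genes of 6.54 FPKM.

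To place these genes in their pathway, 121 further cell cycle genes in 3 lists were read from the same test, of which 120 were tested. Of these, 5 were called higher and 4 lower, 7.5% in all, beside 8.75% of all genes tested. None of 40 further S-phase genes was called by edgeR, DESeq2 or limma-voom (median log2 fold change 0.04), and 1 was higher and 2 lower at an unadjusted p under 0.05. Of 50 further mitotic genes, 2 were called higher and 1 lower (6%), 38 were positive and the median was 0.10.

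Aspm, which organises spindle poles, had the clearest mitotic change. It was at 6.64, 6.64 and 6.43 CPM in ITGA5 fl/fl hearts and at 11.9, 10.1 and 11.5 CPM in Myα5KO libraries, a 1.70-fold difference without overlap (log2 fold change 0.76, SE 0.12, edgeR adjusted p = 0.00227), and it was called in all 15 alternatives in which it was tested. Prc1, which bundles microtubules of the central spindle, was at 13.9, 12.0 and 13.9 CPM in ITGA5 fl/fl hearts and at 18.7, 18.5 and 15.8 CPM in Myα5KO libraries (log2 fold change 0.41, SE 0.11, edgeR adjusted p = 0.0307). Lmnb1, the gene of lamin B1 of the nuclear envelope, was lower, at 216, 199 and 193 CPM in ITGA5 fl/fl hearts and 153, 176 and 158 CPM in Myα5KO libraries (log2 fold change -0.32, SE 0.07, edgeR adjusted p = 0.0162).

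Of 31 inhibitors and regulators of the E2F and retinoblastoma pathway, 30 were tested, and 3 were called higher and 3 lower (20%, beside 8.75% of all genes tested). Because the list was chosen with earlier results of these data known, this share is not a test of the list. Cdkn1a, the gene of the kinase inhibitor p21, fell from 842, 864 and 920 CPM in ITGA5 fl/fl to 682, 779 and 698 CPM in Myα5KO libraries (log2 fold change -0.28, SE 0.07, edgeR adjusted p = 0.0325). The antiproliferative factor gene Btg1 was lower as well, at 1203, 1198 and 1291 CPM in ITGA5 fl/fl hearts and 934, 1092 and 968 CPM in Myα5KO libraries (log2 fold change -0.30, SE 0.08, edgeR adjusted p = 0.0287). Its relative Btg2 changed the opposite way, from 276, 281 and 236 CPM to 333, 412 and 500 CPM (log2 fold change 0.65, SE 0.12, edgeR adjusted p = 0.00495). No group of these 3 genes overlapped with the other.

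The pocket protein and MuvB genes also moved in both directions. Rbl2, which encodes p130, the repressor of resting cells, rose from 37.0, 36.7 and 34.3 CPM to 50.1, 45.3 and 43.0 CPM (log2 fold change 0.36, SE 0.08, edgeR adjusted p = 0.0123). Lin9 and Lin54 encode subunits of the MuvB core, and LIN54 is the subunit that binds CHR elements. Lin9 was at 9.99, 7.58 and 8.71 CPM in ITGA5 fl/fl hearts and at 11.3, 12.2 and 12.6 CPM in Myα5KO libraries (log2 fold change 0.46, SE 0.13, edgeR adjusted p = 0.0363). Lin54 was at 104, 88.3 and 87.0 CPM in ITGA5 fl/fl hearts and at 71.0, 71.0 and 54.2 CPM in Myα5KO libraries (log2 fold change -0.51, SE 0.10, edgeR adjusted p = 0.00796). The groups of each of these genes were apart. The other inhibitors Cdkn1b, Cdkn2c and Cdkn2d had log2 fold changes of 0.06, 0.11 and 0.10 (adjusted p = 0.622, 0.481 and 0.612), and Rb1 and Rbl1 of 0.15 and 0.06 (0.232 and 0.774).

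The 4 to 8 further genes called when 1 library was left out always included Aspm, Btg2 and Lin54. Among these fits, Prc1 kept its call only without Myα5KO replicate 3, and Cdkn1a only without Myα5KO replicate 2. Btg1 kept its call only without Myα5KO replicate 2 or 3, and Lin9 only without ITGA5 fl/fl replicate 1 or Myα5KO replicate 1. For these genes, in that order, edgeR adjusted p values otherwise reached 0.135, 0.141, 0.125 and 0.154. Lmnb1 was lost without ITGA5 fl/fl replicate 1 (0.0618) or 2 (0.0514), and Rbl2 without ITGA5 fl/fl replicate 3 (0.0615). With scaling by library size alone, Cdkn1a (edgeR adjusted p = 0.0814) and Btg1 (0.0673) were not called. Lin9 was not called by DESeq2 (adjusted p = 0.0639).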

How the data were processed

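RNA-seq was performed on polyadenylated RNA of Ly6G-, CD11b+ cells from single hearts, and samples were grouped by their titles. The authors aligned paired reads to mm10 (GRCm38.p6) with TopHat2 2.0.9 and deposited whole read counts per gene from HTSeq 0.6.1. The authors also deposited FPKM values, which equal the count divided by gene length and a constant per library; Cufflinks 2.1.1 is named in their notes. Handling of strand and multi-mapped reads is not given in the sources used here, so counts of overlapping genes (19 of the 51 members) are uncertain; pseudogenes of members held at most 14 counts.

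Counts of all genes were tested with edgeR 4.0.16 in R 4.3.3 (TMM factors, default filter with minimum count 10 and minimum total count 15, quasi-likelihood test, two-sided, Benjamini-Hochberg adjustment over 14522 genes, called at 0.05 or less, no covariate). The standard error was taken from the F statistic. CPM use TMM factors, and FPKM were used to compare genes with each other. Such comparisons depend on the deposited gene lengths, and whether these match the transcripts present was not tested. Alternatives were DESeq2 1.42.0, limma-voom and limma with trend on log2(FPKM + 1) and log2(FPKM + 0.1) (limma 3.58.1, genes reaching 1 FPKM in 3 or more libraries), scaling by library size, upper quartile or median ratio, omission of the filter, a floor of 10 counts per library, a replicate block, omission of each library, and an adjusted p of 0.01. The scripts were tested on simulated data.

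The members and lists were chosen with earlier results of these data known. Values of each library are given for called members, members whose groups did not overlap in CPM, the 3 members of each role with the highest FPKM, and called genes of the further lists, up to 6 per direction. Markers are given by list, and genes named in the closing section were chosen after their values were seen. Intervals cover counting error and the spread of 3 hearts per group. Promoters came from RefSeq (GRCm38.p6) and exon overlaps from GENCODE M21. No promoter was matched for Aurkb, Ccna2, Ccnd1, Ccnd2, Ccne2, Cdc25c, Foxm1, Kif20a, Mcm4, Stmn1 and Tpx2.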

Additional observations from a re-analysis of the deposited data

How the results depend on the processing

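Of the cell cycle members, 4 were called higher in the edgeR test, 2 with limma on log2(FPKM + 1) and 2 on log2(FPKM + 0.1). On both FPKM scales the called members were Ccnd1 and Cdc20, so that Ccnd2, Ccnd3 and Tpx2 lost their calls. With library-size scaling 7 members were called, 1 at an adjusted p of 0.01, and between 1 and 3 when a library was left out. The number called lower was 0 in all alternatives. Of the further cell cycle genes, 9 were called, against 0 by limma on log2(FPKM + 1) and 0 on log2(FPKM + 0.1) (at an unadjusted p under 0.05 on either scale, 0 S-phase, 3 mitotic and 6 regulator genes were higher and 2, 2 and 5 lower), 3 at an adjusted p of 0.01, and between 4 and 8 when a library was left out. Over all genes tested, 1271 were called by edgeR, against 472 and 448 on those FPKM scales, 470 at an adjusted p of 0.01 and 616 without ITGA5 fl/fl replicate 3. Small values changed sign: the log2 fold change of Pcna was -0.002522 with median-ratio factors, -0.007777 for genes with at least 10 counts in every library, and between -0.0251 and 0.04077 when a library was left out, and that of Stmn1 was -0.002129 for genes with at least 10 counts in every library and between -0.0709 and 0.1169 when a library was left out. The cause was not tested. Same-numbered libraries were no more alike than others (correlations 0.0518, -0.0749 and 0.0412, beside -0.111 to 0.0768 for differently numbered libraries). With 3 libraries per group these correlations cannot exclude a pairing. With the replicate block 3 members were called higher, Ccnd2 not among them (edgeR adjusted p = 0.0522). In that fit 9 further genes were called, with Lin9 lost (adjusted p = 0.0530) and Chaf1b gained.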

Other observations

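Of the 120 further cell cycle genes tested, the groups did not overlap in 32.5%, beside 28.6% of all genes tested. These were 28 genes higher and 11 lower in Myα5KO, the called genes included. Some that did not pass the test are given here as examples from both directions. Chaf1b, of the chromatin assembly factor that follows the replication fork, was at 14.8, 15.3 and 20.5 CPM in ITGA5 fl/fl and at 11.5, 13.1 and 13.5 CPM in Myα5KO libraries (log2 fold change -0.41, SE 0.13, edgeR adjusted p = 0.0668). Cdc7, the kinase that fires replication origins, was higher in every Myα5KO library (log2 fold change 0.50, SE 0.19, edgeR adjusted p = 0.129), and Tk1, thymidine kinase, lower in every one (-0.15, SE 0.07, adjusted p = 0.198). Among mitotic genes, Ckap2l was at 20.2, 25.4 and 25.4 CPM in ITGA5 fl/fl and at 19.0, 20.0 and 14.9 CPM in Myα5KO libraries (log2 fold change -0.40, SE 0.12, edgeR adjusted p = 0.0602), whereas Ect2, which starts cytokinesis, and Kif2c, a microtubule depolymerase, were higher in every Myα5KO library (0.35 and 0.41, adjusted p = 0.118 and 0.166).

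Inhibitor genes differed widely in level per gene length. Cdkn1a was at 245 and 201 FPKM in ITGA5 fl/fl and Myα5KO libraries, and Btg1 at 232 and 188 FPKM, beside 10.4 and 14.3 FPKM for Ccnd1. Cdkn2a and Cdkn2b, which encode INK4 inhibitors of CDK4 and CDK6, were at 0.721 and 0.897 FPKM and at 0.444 and 0.341 FPKM, and Cdkn2b did not pass the expression filter.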
